A study of Mus musculus with 8 samples.

Results

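The 10 genes described here encode the machinery by which a cell shows peptides on major histocompatibility complex (MHC) class I, together with the invariant chain of MHC class II. They were chosen by name: *H2-K1*, *H2-D1*, *B2m*, *Tap1*, *Tap2*, *Tapbp*, *Psmb8*, *Psmb9*, *Nlrc5* and *Cd74*. All 10 were found among the 49315 gene identifiers of the count files, and all 10 were among the 16887 genes that had enough reads to be tested. RNA was sequenced from brain endothelial cells (ECs) of 4 mutant and 4 wild-type mouse pups at postnatal day 9 (P9), with 1 library per pup. Mutant pups were R26 GT-Map2k1-GFP/+; Tg-Cdh5CreER+/-. In these animals CreER, a recombinase switched on by tamoxifen and driven by an endothelial *Cdh5* promoter, removes a stop cassette at the *Rosa* locus, so that a *Map2k1* (p.K57N) cDNA followed by GFP is transcribed. *Map2k1* encodes a kinase of the RAS pathway, and the K57N change makes it constitutively active. Tamoxifen was given to whole litters on postnatal day 1, so the controls received it too, and both strains had been backcrossed to C57BL/6J. The controls, labelled Wild type, were pups drawn from the same litters. ECs were pulled from the digested brain with magnetic beads carrying an antibody to CD31, and per the study's methods the allele had recombined in only a minority of the mutant pups' ECs. Each mutant library therefore held RNA of recombined and unrecombined cells together.

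Class I molecules consist of a heavy chain, here *H2-K1* or *H2-D1*, and the light chain beta-2-microglobulin, the product of *B2m*. They carry peptides cut by the proteasome, in which *Psmb8* and *Psmb9* encode interferon-inducible subunits that take the place of constitutive ones. *Tap1* and *Tap2* form the transporter that moves the peptides into the endoplasmic reticulum, and *Tapbp* encodes tapasin, which holds empty class I molecules at the transporter until a peptide is bound. *Nlrc5* encodes the transactivator of class I genes. *Cd74* encodes the invariant chain, which occupies newly made class II molecules and is known for professional antigen-presenting cells rather than for resting brain endothelium.

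The promoters of the heavy chains and of *B2m* are shown because these genes, together with *Nlrc5*, set 1 mutant library apart in the values that follow. RefSeq start sites on GRCm38 were given for 7 of the 10 genes, and the 250 bases before each start were searched on both strands for 4 short motifs. These were a core of interferon response elements (GAAACT), a part of the NF-kB site of class I enhancers (GGGATTC), the CCAAT box (CCAAT) and the core of a cyclic AMP response element (TGACGC). Capitals mark the matches, none of which overlapped in the stretches shown. The *H2-D1* window lies wholly in the 5′ untranslated part of a longer annotated transcript, so that only 30 bases around its interferon core are given.
H2-K1, minus strand, chr17:34000334-34000583: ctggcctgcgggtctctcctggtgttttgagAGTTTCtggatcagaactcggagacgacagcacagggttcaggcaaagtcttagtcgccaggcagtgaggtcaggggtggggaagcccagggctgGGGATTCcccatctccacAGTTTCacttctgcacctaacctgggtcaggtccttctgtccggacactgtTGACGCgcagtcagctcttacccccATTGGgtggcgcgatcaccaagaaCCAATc
H2-D1, plus strand, chr17:35262933-35262962: catctcctcAGTTTCacttctgcacctaac
B2m, plus strand, chr2:122147437-122147686: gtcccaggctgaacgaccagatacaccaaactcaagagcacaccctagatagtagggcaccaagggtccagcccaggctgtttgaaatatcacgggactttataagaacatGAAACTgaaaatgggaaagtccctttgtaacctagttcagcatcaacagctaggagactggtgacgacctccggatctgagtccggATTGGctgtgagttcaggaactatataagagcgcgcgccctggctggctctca

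The *H2-K1* and *H2-D1* windows shared 3 identical stretches of at least 20 bases. The longest, of 47 bases, held the NF-kB letters and the next, of 40 bases, began 1 base before the interferon core, and of 27025 genes with a RefSeq window only *H2-K1* and *H2-D1* held either of them. The third, of 21 bases, was also found before *H2-Q4*, *H2-Q6* and *H2-Q7*. Farther toward the start both windows held the cyclic AMP core and a CCAAT box on either strand, in the same order. The *B2m* window held the interferon core and a CCAAT box and neither of the other motifs in the exact letters searched. Of the windows searched but not shown, that of *Psmb8* held only the interferon core. Those of *Tap1*, *Tapbp* and *Psmb9* held only CCAAT boxes. The interferon core stood before 4161 genes (15.4%), the NF-kB letters before 797 (2.95%), the CCAAT box before 10133 (37.5%) and the cyclic AMP core before 1874 (6.93%). The interferon core and the NF-kB letters were found together before 135 genes (0.5%). A match describes the sequence only and does not show that a factor binds there. Equally, a window without these exact letters may still hold a variant of the same site.

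The libraries held 24833373 to 34196955 counted reads, so that counting error was small for the class I genes and largest for *Nlrc5*, which had the fewest reads. *Map2k1* reads, which the endogenous gene and the transgene share, stood at 18707, 12673, 12689 and 14321 normalized counts in Mutants 1 to 4 and at 1504 to 1760 in the wild type, so every mutant library was above every control. All 10 endothelial markers were detected, with a summed level of 364966 to 442869 in mutant and 343423 to 416078 in wild-type libraries. Of these markers edgeR called 3 higher and 3 lower (adjusted p under 0.05), against 21.5% and 22.9% of all tested genes. *Cdh5* was at 2.155 and *Kdr* at 0.6645 times the wild-type level, so the sum holds changes in opposite directions. The libraries also held RNA of other cells. Summed microglia and macrophage markers were 6083, 7616, 22795 and 18068 in Mutants 1 to 4 and 7490, 10018, 25130 and 7011 in Wild types 1 to 4, and 0 of these 18 genes passed the test by edgeR. By an adjusted p under 0.05, mutant libraries held lower levels of 6 of 6 red blood cell, 5 of 6 oligodendrocyte and 4 of 6 neuronal markers, and all of these genes were over 2-fold lower. Of all tested genes 22.9% were called lower, and 8.05% lower by over 2-fold. The neuronal marker *Rbfox3* had a log2 fold change of 1.185 and was not called. Called higher were 3 of 10 pericyte and smooth muscle, 2 of 6 fibroblast and 1 of 6 astrocyte markers, against 21.5% of all genes. Called lower were 0, 1 and 0 of these, and 1 of 6 neutrophil markers. The astrocyte marker called higher was *Gja1*, named after its values were seen. Of the 6 astrocyte markers 4 had a log2 fold change below 0, and the median was -0.493. The description labels of the libraries begin with a number that Mutants 1 and 2 share with Wild types 1 and 2, Mutant 3 with Wild type 3, and Mutant 4 with Wild type 4. The study's methods state that controls were matched in number to mutants within each litter. The label numbers give such a matching and may mark litters, but neither source ties the numbers to litters.

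Between mutant and wild-type ECs, 2 of the 10 genes changed, both downward. *Tapbp* fell to 0.773 of the wild-type level and *Cd74* to 0.446. The other 8, among them both heavy chains, *B2m*, both transporter genes and both immunoproteasome subunits, did not pass an adjusted p of 0.05 by edgeR's quasi-likelihood test, and 3 of the 10 had an unadjusted p under 0.05. That threshold called 44.4% of all tested genes, 21.5% higher and 22.9% lower, so the share among the 10 was below the background. *Cd74* alone of the 10 also passed a 2-fold change, as did 14.0% of all genes (8.05% lower). *Tapbp* was the only one of the 10 whose groups did not overlap, against 42.5% of all genes (21.9% lower). With the label number as a block in the fit, 4 of the 10 genes were called, *Tap1* and *Tap2* being added as higher. The median log2 fold change of the 10 genes was 0.055 and that of all genes -0.025.

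**Figure D1:**
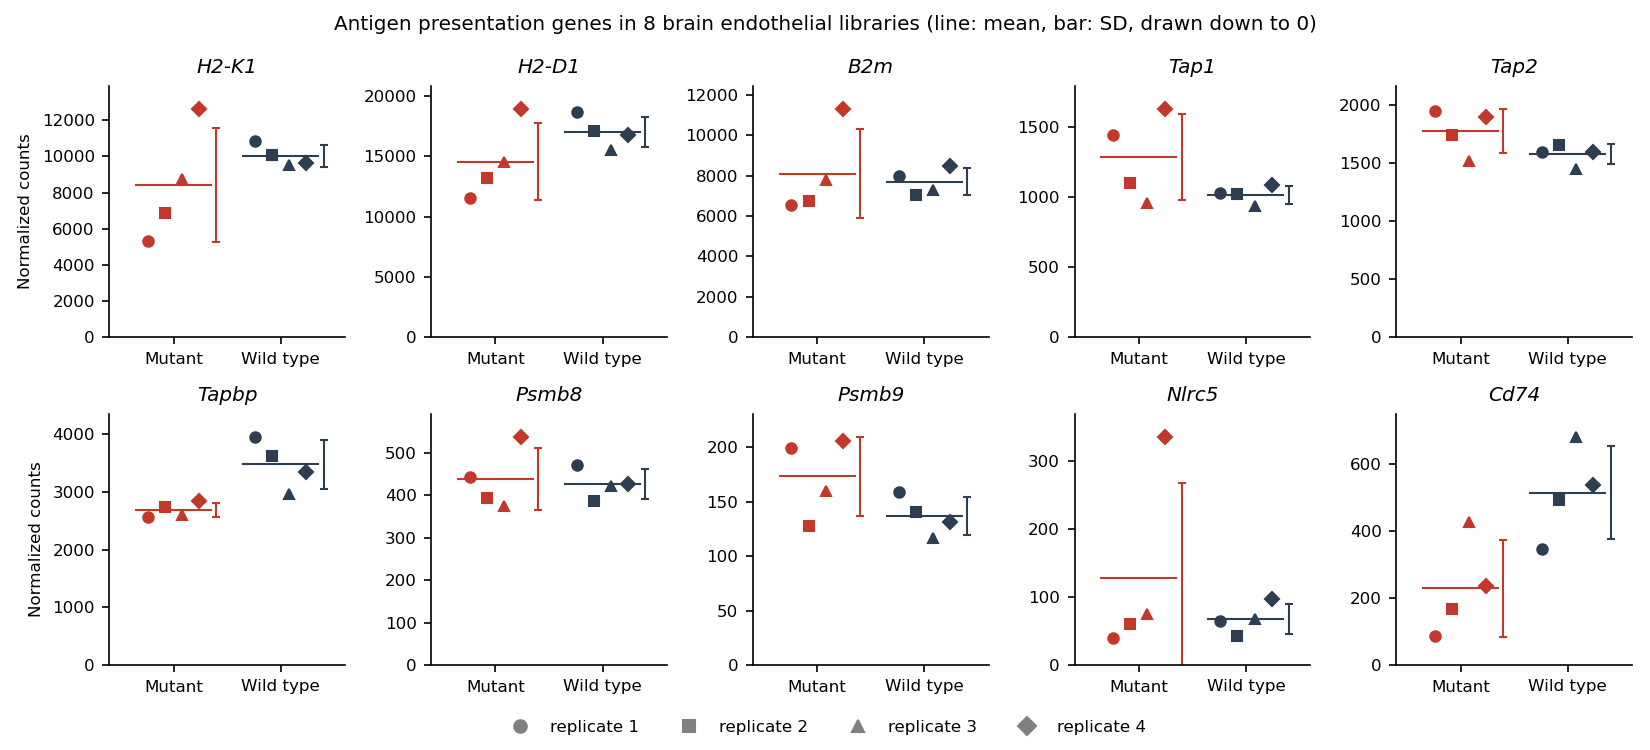
Normalized counts (y axis, linear from 0) of the 10 genes in 4 mutant (red) and 4 wild-type (dark blue) libraries. Points are libraries, with symbols for the replicate number, horizontal lines are means and bars the SD. Mutant 4 (diamond) is the highest mutant library for 8 genes, Tap2 and Cd74 being the exceptions, and the groups are apart for Tapbp.

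By level per kilobase of gene model, the light chain was the most abundant. *B2m* stood at 9427 ± 2561 normalized counts per kb in mutant and 8962 ± 764.2 in wild-type ECs (mean ± SD, n = 4 each, as for every ± here). *H2-D1* followed at 5646 ± 1232 and 6603 ± 494.5, and *H2-K1* at 3221 ± 1212 and 3849 ± 231.8. In wild-type libraries these 3 genes did not overlap, whereas in mutant libraries *H2-D1* and *H2-K1* did. *Tapbp* came next at 815.7 ± 39.18 and 1055 ± 127.5, then *Tap2* at 469 ± 50.65 and 416.4 ± 23.04. *Tap1* stood at 233.8 ± 56.02 and 185.3 ± 11.5, and *Psmb8* at 160.1 ± 26.64 and 156.2 ± 12.9, and these overlapped in both groups. *Cd74* overlapped *Tap2* in wild-type ECs, at 365 ± 98.15, and *Tap1* and *Psmb8* in mutant ECs, at 162.3 ± 103.3. *Psmb9* was lower, at 47.44 ± 9.955 and 37.44 ± 4.869, and *Nlrc5* was the least abundant at 15.02 ± 16.48 and 8.027 ± 2.596.

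The classical heavy chains varied more among mutant pups than among controls. *H2-K1* (ENSMUSG00000061232, chr17:33996017-34000333, minus strand) was at 5305, 6888, 8769 and 12638 normalized counts in Mutants 1 to 4. It was at 10881, 10064, 9552 and 9654 in Wild types 1 to 4. Mutants 1 to 3 lay below every control and Mutant 4 above every control. The mean was 8400 ± 3160 against 10040 ± 604.5, a log2 fold change of -0.26 (SE 0.21, 95% interval -0.73 to 0.22) with an adjusted p of 0.356 by edgeR.

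*H2-D1* (ENSMUSG00000073411, chr17:35262730-35267499, plus strand), the second classical heavy chain of this strain, had the same layout. Its normalized counts were 11522, 13201, 14574 and 18944 in Mutants 1 to 4, and 18642, 17132, 15541 and 16798 in Wild types 1 to 4. Again Mutants 1 to 3 were below all controls and Mutant 4 was above them. The log2 fold change was -0.23 (SE 0.14, 95% interval -0.53 to 0.08), with an adjusted p of 0.207 by edgeR. Of the 150-base windows of its transcript, 1.79% were identical to another gene, chiefly *H2-Q1*, while no window of the *H2-K1* transcript was, so reads could be divided between genes at few places.

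*B2m* (ENSMUSG00000060802, chr2:122147686-122153083, plus strand) did not pass the test either. It was at 6571, 6766, 7778 and 11315 normalized counts in Mutants 1 to 4 and at 7974, 7051, 7302 and 8501 in Wild types 1 to 4. Mutants 1 and 2 were below all controls, Mutant 3 was among them and Mutant 4 was above them. The log2 fold change was 0.07 (SE 0.16, 95% interval -0.28 to 0.43, adjusted p = 0.734 by edgeR).

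*Nlrc5* (ENSMUSG00000074151, chr8:94434356-94527272, plus strand) differed most of the 10 between mutant pups. Its normalized counts were 39.2, 59.6, 75.2 and 336.4 in Mutants 1 to 4, against 65.3, 43.2, 67.3 and 96.9 in Wild types 1 to 4. Mutants 2 and 3 lay among the controls, Mutant 1 just below them and Mutant 4 far above all others. The fitted log2 fold change of 0.93 had an SE of 0.60 and a 95% interval of -0.40 to 2.25, with an adjusted p of 0.233 by edgeR.

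Mutant 4 decided whether the heavy chains were called. Without it *H2-K1* was lower in mutant ECs by a log2 fold change of -0.50 (SE 0.15, adjusted p = 0.0245 by edgeR), with Mutants 1 to 3 at 6987 ± 1734. *H2-D1* was lower by -0.36 (SE 0.10, adjusted p = 0.0183), with Mutants 1 to 3 at 13100 ± 1529. *B2m* then had a log2 fold change of -0.11 (adjusted p = 0.386) and *Nlrc5* one of -0.20 (adjusted p = 0.642), both on the other side of 0 from the values with all 8 libraries. With the 3 remaining mutant libraries 3 of the 10 genes were called, all lower, against 40.3% of all genes (19.5% lower), and the median log2 fold change of the 10 was -0.154 against -0.013 for all genes. Between libraries that share a label number, *H2-K1* had a log2 ratio of mutant to wild type of -0.78, -0.12 and 0.39, and *H2-D1* one of -0.53, -0.09 and 0.17, in the order of Mutants 1 and 2, Mutant 3, and Mutant 4.

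**Figure D2:**
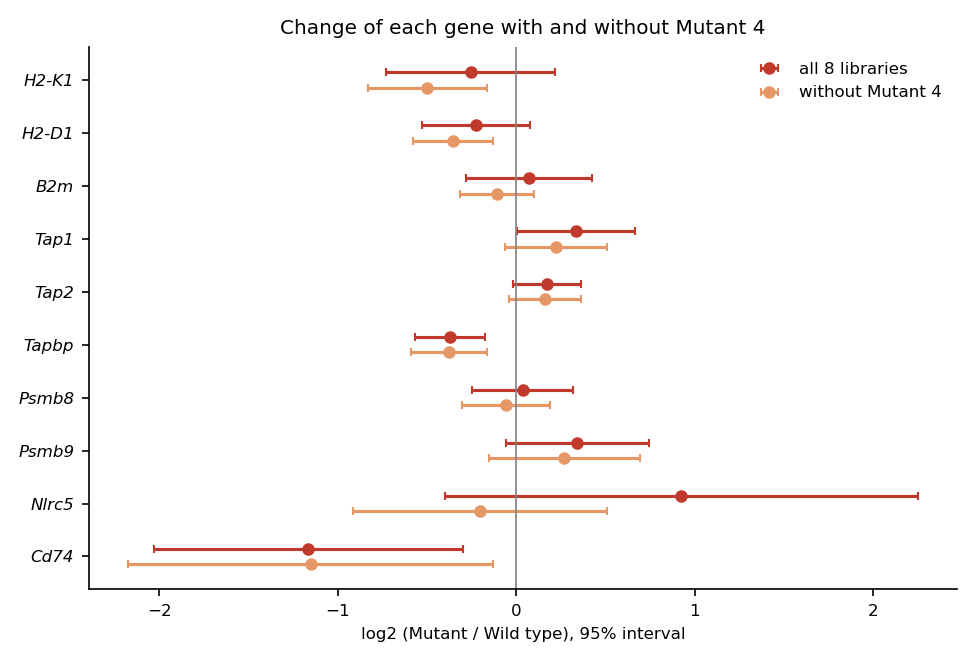
Log2 fold change of mutant over wild type (x axis) for each of the 10 genes, with its 95% interval from edgeR, over all 8 libraries (red) and without Mutant 4 (orange). Without Mutant 4 the intervals of H2-K1 and H2-D1 lie below 0, that of Tapbp hardly moves, and the estimate of Nlrc5 passes from 0.93 to -0.20.

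The elevation of Mutant 4 ran through the class I genes unevenly. Its level divided by the mean of Mutants 1 to 3 was 5.8 for *Nlrc5*, 1.81 for *H2-K1*, 1.61 for *B2m*, 1.45 for *H2-D1*, 1.4 for *Tap1*, 1.33 for *Psmb8* and 1.27 for *Psmb9*. It was 1.09 for *Tap2*, 1.08 for *Tapbp* and 1.04 for *Cd74*. All 10 were above 1, as were 45.7% of 12902 genes that averaged 50 or more normalized counts, whose median ratio was 0.984. At or above the ratio of *Nlrc5* were 9 of those genes (0.0698%), and at or above that of *H2-K1* were 212 (1.64%).

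Other class I genes were also high in Mutant 4. Those named in this paragraph were chosen after their values were seen, apart from *H2-T22* and *H2-T23*. *H2-Q6* and *H2-Q7*, neighbouring non-classical class I genes of the Q region, were 7.4 and 8.13 times the mean of Mutants 1 to 3. *H2-Q7* was at 27.8, 80.6, 119.5 and 618 normalized counts in Mutants 1 to 4 and at 125.1, 109.8, 153.7 and 102.1 in the controls. *H2-Q6* was at 97.4, 181.1, 298.8 and 1425 in Mutants 1 to 4 and at 295 to 389 in the controls. These transcripts share 116 of their 150-base windows with each other, so reads of one could have been given to the other. For both genes Mutant 4 was above all controls, Mutants 1 and 2 were below them and Mutant 3 lay among them. For *H2-Q4*, at 1.64 times, and *H2-T10*, at 3.24 times, Mutants 1 to 3 were below all controls. Mutant 4 was just above the controls for *H2-Q4* (4441 against 4071 to 4389) and among them for *H2-T10* (38.2 against 31.1 to 50.5). Without Mutant 4 both were lower in mutant ECs, *H2-T10* by a log2 fold change of -1.70 (adjusted p = 0.00216 by edgeR) and *H2-Q4* by -0.63 (adjusted p = 0.0031). *H2-T22* and *H2-T23*, by contrast, were at 1.01 and 0.975 times the mean of Mutants 1 to 3. *Irf1*, which encodes a transcription factor of the interferon response, was at 0.867 times. Of 28 tested interferon-induced genes, all but *Ifi27* were higher in Mutant 4 than in the mean of Mutants 1 to 3. *Ifit1* was at 118.2 against 36.64 normalized counts, *Rsad2* at 454.6 against 183.1 and *Isg15* at 359.8 against 190.4. Wild type 4 was the highest control for each of these genes, at 102.1, 365.4 and 339.1. The part of interferon in the class I level of Mutant 4 was not tested.

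**Figure D3:**
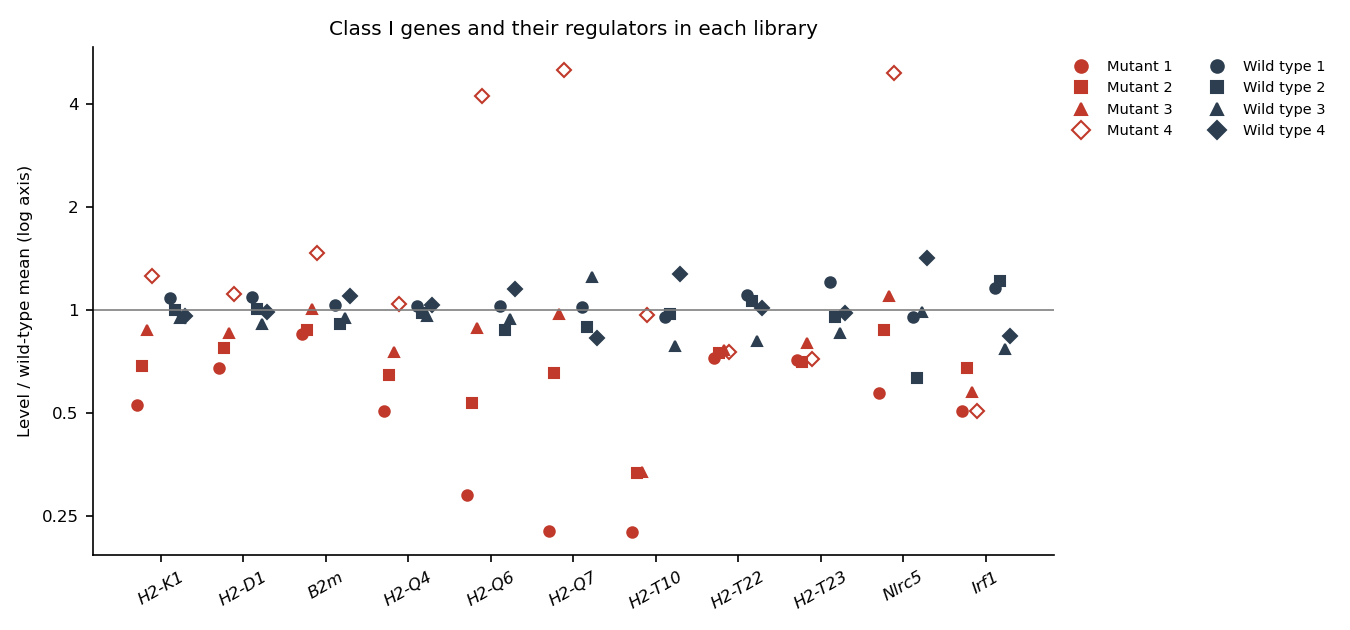
Level of 11 class I and regulatory genes in each library divided by the wild-type mean (y axis, log scale). Mutants are red and controls dark blue, symbols give the replicate number and open diamonds mark Mutant 4. Mutant 4 is apart from Mutants 1 to 3 for H2-K1, H2-D1, B2m, H2-Q4, H2-Q6, H2-Q7, H2-T10 and Nlrc5, and lies with them for H2-T22, H2-T23 and Irf1.

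The microglial markers summed to 22795 in Mutant 3 and 18068 in Mutant 4, while *H2-K1* was at 8769 and 12638 in these libraries, and Wild type 3 had the highest microglial sum, 25130, with *H2-K1* at 9552. The natural killer and T cell markers *Ncr1*, *Nkg7*, *Cd3e*, *Cd3d* and *Cd8a* had too few reads to be tested in any comparison. *Itgax*, a marker of dendritic cells and some microglia, was at 213.7, 205.4, 249 and 550.2 normalized counts in Mutants 1 to 4 and at 9.2 to 69.1 in the controls, so it too was highest in Mutant 4. The part of such cells in the class I level of Mutant 4 was not tested.

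Of the peptide transport and loading genes, *Tapbp* (ENSMUSG00000024308, chr17:33915899-33929288, plus strand) was the gene that passed the test. It was at 2559, 2742, 2609 and 2844 normalized counts in Mutants 1 to 4, and at 3962, 3628, 2972 and 3350 in Wild types 1 to 4. Every mutant library, Mutant 4 included, was below every control. The mean fell from 3478 ± 420.3 to 2688 ± 129.1, a log2 fold change of -0.37 (SE 0.09, 95% interval -0.57 to -0.17, adjusted p = 0.00666 by edgeR). The call held in all 18 alternative analyses, in which the log2 fold change lay between -0.44 and -0.28. The *Tapbp* gene model overlaps annotated neighbours, and how the counting treated shared or antisense reads is not given in the sources used here.

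*Tap1* (ENSMUSG00000037321, chr17:34187553-34197225, plus strand) was at 1440, 1098, 958.3 and 1626 normalized counts in Mutants 1 to 4 and at 1030, 1016, 930.7 and 1083 in Wild types 1 to 4. Mutants 1, 2 and 4 were above all controls and Mutant 3 was among them. The log2 fold change of 0.34 (SE 0.15, 95% interval 0.01 to 0.67) had an unadjusted p of 0.047 and an adjusted p of 0.0912 by edgeR. Without Mutant 3 it was called higher, at 0.46 with an adjusted p of 0.0142, and so it was over all 8 libraries with the label number as a block, at 0.31 with an adjusted p of 0.0379.

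*Tap2* (ENSMUSG00000024339, chr17:34203527-34216321, plus strand) was at 1942, 1737, 1518 and 1897 normalized counts in Mutants 1 to 4 and at 1592, 1657, 1451 and 1597 in Wild types 1 to 4. As for *Tap1*, the same 3 mutant libraries were above all controls and Mutant 3 was not. The log2 fold change was 0.17 (SE 0.09, adjusted p = 0.132 by edgeR), and without Mutant 3 it was 0.25 (adjusted p = 0.0226). With the label number as a block it was 0.17 and *Tap2* was called higher (adjusted p = 0.0496). The mean levels of the transporter genes were above and that of tapasin below the wild-type mean, and without the block the change of tapasin alone passed the test.

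Of the 11 other genes listed as loading chaperones or trimming enzymes, 7 rose and 2 fell, where 21.5% of all genes were called higher and 22.9% lower. The number that rose was 6 to 7 when a library was left out. The chaperones that fold glycoproteins in general were among those that rose. *Canx*, which encodes calnexin, went from 10130 ± 436.8 to 13150 ± 1023 normalized counts (log2 fold change 0.38, SE 0.08, adjusted p = 0.00272). *Pdia3*, an oxidoreductase that also sits in the peptide-loading complex, went from 16480 ± 1123 to 20390 ± 1014 (log2 fold change 0.31, adjusted p = 0.00806). The glucosidase II subunits *Ganab* and *Prkcsh*, which trim the sugars that calnexin reads, had log2 fold changes of 0.34 and 0.37, and the cytosolic aminopeptidase *Npepps* one of 0.45. *Calr*, which encodes calreticulin, was at 24220 ± 2318 in wild-type and 27030 ± 1707 in mutant ECs and did not pass (adjusted p = 0.168). *Lnpep*, another peptide-trimming enzyme of the list, was called higher and is named here after its values were seen. The 2 genes that fell act on class I in particular, but trimming enzymes changed in both directions. *Tapbpl*, which encodes the tapasin-related peptide editor TAPBPR, fell from 485.4 ± 62.76 to 292.2 ± 25.88 (log2 fold change -0.73, SE 0.12, adjusted p = 0.000763). *Erap1*, the aminopeptidase that trims class I peptides in the endoplasmic reticulum, fell from 2237 ± 212.5 to 1754 ± 191.1 (log2 fold change -0.35, adjusted p = 0.0144). The call of *Erap1* was lost without Wild type 1 (log2 fold change -0.30, adjusted p = 0.0541).

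The immunoproteasome subunits did not pass the test. *Psmb8* (ENSMUSG00000024338, chr17:34197721-34201454, plus strand) was at 442.5, 394.2, 376.2 and 538.9 normalized counts in Mutants 1 to 4 and at 472.7, 386.7, 422.2 and 427.5 in Wild types 1 to 4. The groups overlapped throughout, and the log2 fold change was 0.04 (SE 0.13, 95% interval -0.25 to 0.32, adjusted p = 0.834 by edgeR). *Psmb9* (ENSMUSG00000096727, chr17:34181988-34187764, minus strand) was at 199.8, 128.1, 160.4 and 206 in Mutants 1 to 4 and at 159.1, 140.8, 116.5 and 131.6 in Wild types 1 to 4. Mutants 1, 3 and 4 were above all controls and Mutant 2 was among them. Its log2 fold change was 0.34 (SE 0.18, 95% interval -0.06 to 0.74, adjusted p = 0.148 by edgeR). *Psmb9* and *Tap1* lie head to head and their gene models overlap by 212 bases.

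*Psmb10*, the third inducible subunit, fell while its constitutive partner rose. It was at 431.1, 553.2, 589.8 and 553.7 normalized counts in Mutants 1 to 4 and at 802, 672, 624.2 and 768.7 in Wild types 1 to 4, with no overlap. The log2 fold change was -0.43 (SE 0.12, adjusted p = 0.0147 by edgeR), and without Wild type 1 it was -0.35 (adjusted p = 0.058). The constitutive subunits *Psmb5*, *Psmb6* and *Psmb7* rose by log2 fold changes of 0.38, 0.25 and 0.31 (adjusted p = 0.0151, 0.0282 and 0.00258 by edgeR). The activator genes *Psme3* and *Psme4* rose by 0.47 and 0.30, while *Psme1*, which encodes part of the interferon-inducible activator, fell by 0.19 on the log2 scale. Of the 9 proteasome genes 5 rose and 2 fell, against 21.5% and 22.9% of all genes. With scaling by library size alone 3 rose, *Psmb6* and *Psme4* losing their call, and without Wild type 1 none of the 9 was called lower. *Psme1* was called in 2 of 8 analyses that left out a library, and *Psmb6* and *Psme4* in 5 of 8.

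Each inducible subunit was also divided by the constitutive subunit it replaces, per length and within each library, which does not depend on the scaling of libraries. The *Psmb10* to *Psmb7* ratio was 0.309, 0.387, 0.404 and 0.354 in Mutants 1 to 4 and 0.655, 0.566, 0.561 and 0.650 in Wild types 1 to 4. All 4 mutant values lay below all 4 control values, with a log2 difference of -0.75 and a two-sided exact permutation p of 0.0286, the smallest that 4 against 4 can give. Adjusted over the 3 ratios, the exact permutation p was 0.0858. That is the lowest value the adjustment allows unless another ratio also reaches the smallest p. The adjusted value therefore cannot decide whether this ratio changed. The *Psmb8* to *Psmb5* ratio had a geometric mean of 0.0744 in mutant and 0.0962 in wild-type libraries (log2 difference -0.37, exact permutation p = 0.0857, adjusted 0.129). The *Psmb9* to *Psmb6* ratio had geometric means of 0.0367 and 0.0348 (log2 difference 0.08, exact permutation p = 0.6, adjusted 0.6).

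*Cd74* (ENSMUSG00000024610, chromosome 18), the invariant chain, fell by the largest amount of the 10 genes. It was at 86, 166.7, 427.1 and 235.5 normalized counts in Mutants 1 to 4 and at 345.8, 493.7, 682 and 537 in Wild types 1 to 4. Mutants 1, 2 and 4 were below all controls, and Mutant 3 was above Wild type 1. The mean was 228.8 ± 145.6 against 514.6 ± 138.4, a log2 fold change of -1.17 (SE 0.39, 95% interval -2.03 to -0.30, adjusted p = 0.0330 by edgeR). The call rested on single libraries. It was lost in 6 of the 8 analyses that left out a library, at -0.87 (adjusted p = 0.0541) without Mutant 1, -1.04 (0.084) without Mutant 2, -1.15 (0.0698) without Mutant 4, -1.19 (0.0576) without Wild type 2, -0.997 (0.0751) without Wild type 3 and -1.15 (0.0616) without Wild type 4. The direction was the same in all 18 alternatives.

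The genes of the class II molecules themselves lay in the same direction. Of 12 class II pathway genes 10 were tested, 5 fell, each over 2-fold (as did 8.05% of all genes), and 0 rose by edgeR, where 1 rose without Wild type 3. *H2-Ab1*, a class II beta chain, was at 37.9, 55.2, 73 and 53 normalized counts in Mutants 1 to 4 and at 102.1, 117.3, 158.9 and 175.8 in Wild types 1 to 4, without overlap (log2 fold change -1.33, SE 0.24, adjusted p = 0.00147). Its partner *H2-Aa* fell from 86.21 ± 23.04 to 33.71 ± 17.50 (log2 fold change -1.35, adjusted p = 0.00953), *H2-Eb1* from 128.4 ± 29.32 to 53.90 ± 23.99 (-1.24, adjusted p = 0.00758) and *H2-Ob*, which belongs to the peptide-editing dimer of B cells, from 67.13 ± 13.61 to 26.45 ± 17.61 (-1.34, adjusted p = 0.0170). These 4 kept their call whichever library was left out. *H2-DMb2* also fell (-1.21, adjusted p = 0.0335) but was called in 3 of the 6 analyses without 1 library in which it could be tested, and not without Mutant 1, 2 or 4. *H2-DMa*, *H2-DMb1*, *H2-Oa*, *Ctss* and *Ifi30* did not pass, with log2 fold changes of 0.12, 0.26, -0.70, 0.87 and 0.33. *Ciita*, the class II transactivator, had too few reads to be tested.

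A gene of B cells moved with the class II genes. Of 15 dendritic and lymphoid markers, 9 were tested. *Ms4a1*, which marks B cells, was at 5.1, 13.2, 18.8 and 8.7 normalized counts in Mutants 1 to 4 and at 29.4, 70.4, 76.8 and 74.8 in Wild types 1 to 4, without overlap. Its log2 fold change was -2.44 (SE 0.42, adjusted p = 0.00101 by edgeR), and *Zbtb46* fell as well. *Cd79a*, of the B cell receptor, was at -0.67 (adjusted p = 0.0573). *Flt3* and *Itgax* rose by 1.75 and 2.98. The list as a whole summed to 1392 to 1810 in mutant and 1555 to 2001 in wild-type libraries. Mutant 3 was the highest mutant library and Wild type 1 the lowest control for *Ms4a1*, as they were for *Cd74*, *H2-Aa* and *H2-Ob*. The order in Mutant 3 is not particular to B cell genes. Summed microglia and macrophage markers were also highest among mutants in Mutant 3 (22795), with Wild type 4 (7011) the lowest control. In bulk RNA, fewer cells of a type and less RNA per cell cannot be told apart, and the part of B cells in the level of *Cd74* was not tested.

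**Figure D4:**
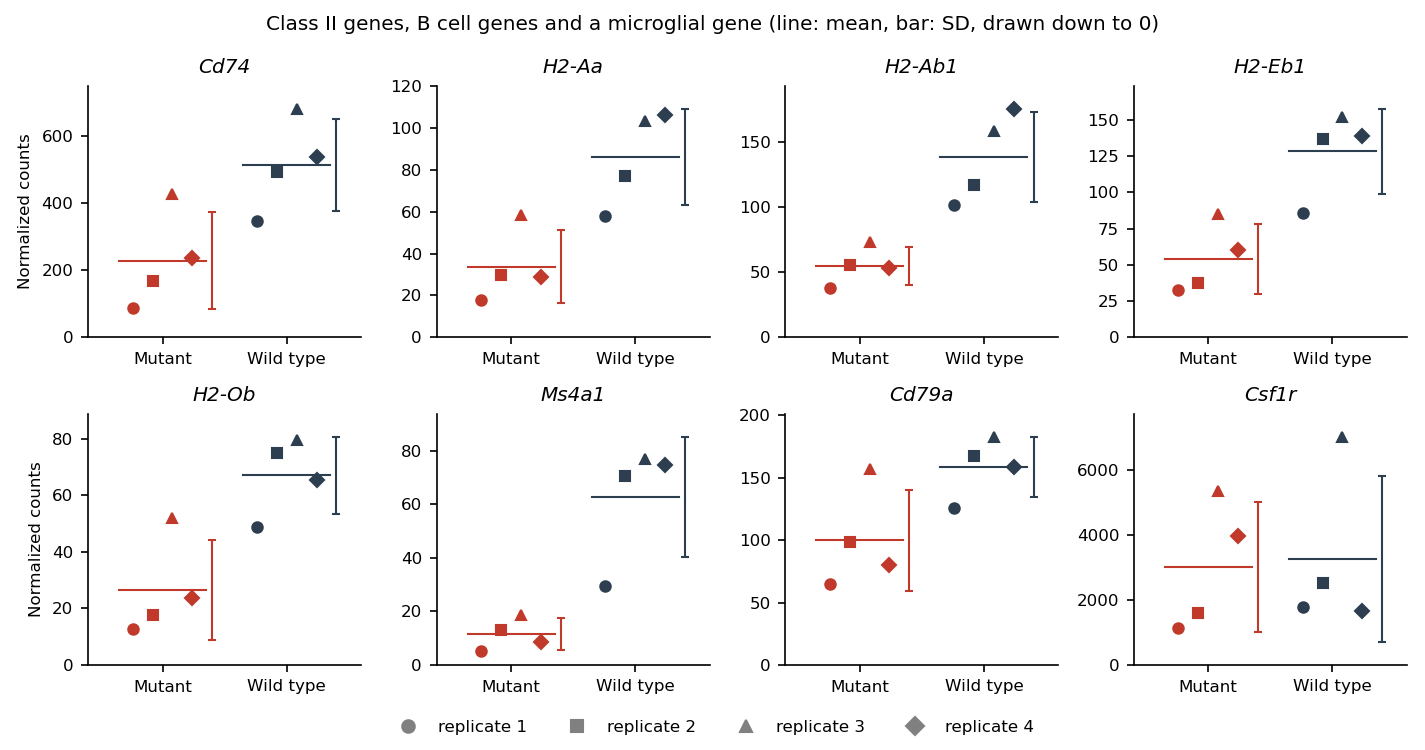
Normalized counts (y axis, linear from 0) of Cd74, 4 class II genes, the B cell genes Ms4a1 and Cd79a and the microglial gene Csf1r in 4 mutant (red) and 4 wild-type (dark blue) libraries. Points are libraries, lines means and bars the SD. The means of the class II and B cell genes are lower in mutant libraries, with Mutant 3 the highest of them (Cd79a did not pass the test), while Csf1r is high in Mutants 3 and 4 and in Wild type 3.

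Microglia can carry class II as well. Of the 18 microglia and macrophage markers 0 passed the test, 12 had a log2 fold change above 0 and 6 below, and the median was 0.5. Single markers ran from -0.98 for *P2ry12* and -0.60 for *Fcrls* to 1.499 for *Cd163*, 3 genes named after their values were seen. *Csf1r*, chosen as 1 example, was at 1119, 1582, 5355 and 3944 normalized counts in Mutants 1 to 4 and at 1792, 2528, 7013 and 1661 in Wild types 1 to 4 (log2 fold change -0.11, adjusted p = 0.883 by edgeR). With the mean level of the microglial markers as a covariate, an analysis added after seeing the data, *Cd74* was lower by -1.55 (adjusted p = 0.000649). With Mutant 3 and Wild type 3, the libraries of the same label number, both left out, which was also added later, it was lower by -1.47 (adjusted p = 0.00664). The covariate averages markers with estimates on both sides of 0, and the part of microglia in the level of *Cd74* was not tested.

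Regulators of class I transcription changed in both directions, 7 higher and 15 lower of 32, against 21.5% and 22.9% of all genes, with a median log2 fold change of -0.187. The number higher was 4 with scaling by library size alone, and also 4 without Wild type 1, 2 or 4. Several that act directly on class I promoters or on the interferon signal fell. *Irf1*, the interferon regulatory factor that binds class I promoters, was at 3081, 4118, 3511 and 3095 normalized counts in Mutants 1 to 4 and at 7091, 7427, 4703 and 5122 in Wild types 1 to 4 (log2 fold change -0.82, SE 0.16, adjusted p = 0.00196 by edgeR). *Stat2*, a transcription factor downstream of interferon receptors, fell, with a log2 fold change of -0.81 (adjusted p = 0.0000788). *Rfx5*, whose product holds *Nlrc5* protein at class I promoters, fell from 497.6 ± 73.77 to 352.6 ± 20.03 (-0.50, adjusted p = 0.00608). The other 2 subunits of that complex, *Rfxap* and *Rfxank*, had log2 fold changes of -0.58 and -0.41 and also fell, as did *Irf9*, the partner of STAT2, at -0.74; these 3 were chosen after their values were seen. *Socs1*, an inhibitor of JAK kinases, fell by 1.25 on the log2 scale, and *March9*, which encodes a ubiquitin ligase that removes class I from the cell surface, fell by 1.21.

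Other regulators rose. *Irf8*, a factor best known from myeloid and B cells, went from 562.7 ± 195.1 to 3363 ± 829.9 normalized counts, a log2 fold change of 2.58 (SE 0.25, adjusted p = 0.0000322 by edgeR). Its values were 4229, 2611, 2696 and 3916 in Mutants 1 to 4 and 398.2 to 835.7 in the controls, highest in Mutants 1 and 4. *Jak1*, the kinase of interferon receptors, rose from 5386 ± 277.8 to 10480 ± 1220 (log2 fold change 0.96, adjusted p = 0.0000293). Among the interferon receptor genes, *Ifngr2* rose by 0.65 and *Ifnar2* fell by 0.43 on the log2 scale, both named after their values were seen. Of the NF-kB genes, also named after their values were seen, *Nfkb1* rose from 9545 ± 1042 to 13260 ± 665.8 (log2 fold change 0.475, adjusted p = 0.00172 by edgeR). *Relb* and *Nfkb2* rose by 0.288 and 0.224, and *Rela* fell by 0.192 on the log2 scale. These last 3 were called in 4, 2 and 2 of the 8 analyses that left out a library. Every other regulator named here kept its call whichever library was left out.

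Genes induced by interferon had 0 of 28 tested members higher by edgeR and 14 lower, against 21.5% and 22.9% of all genes, with a median log2 fold change of -0.471. The 2 largest falls were of *Igtp* and *Irgm2*, which encode GTPases that act against intracellular pathogens. *Igtp* was at 192.2, 226.3, 265.6 and 283.3 normalized counts in Mutants 1 to 4 and at 682.4, 550.9, 565.5 and 691.8 in Wild types 1 to 4 (log2 fold change -1.36, SE 0.14, adjusted p = 0.0000509). *Irgm2*, whose gene model overlaps that of *Igtp*, had a log2 fold change of -1.32, and of the guanylate-binding proteins *Gbp7* had one of -0.89 and *Gbp3* one of -0.86. *Xaf1* and *Trim30a* fell as well, at -0.98 and -0.91. These 6 kept their call whichever library was left out. Members that did not pass included *Isg15* at -0.28, *Ifit1* at -0.20 and *Bst2* at 0.14. Without Mutant 4 the count was 15 lower and 0 higher, with a median of -0.679.

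**Figure D5:**
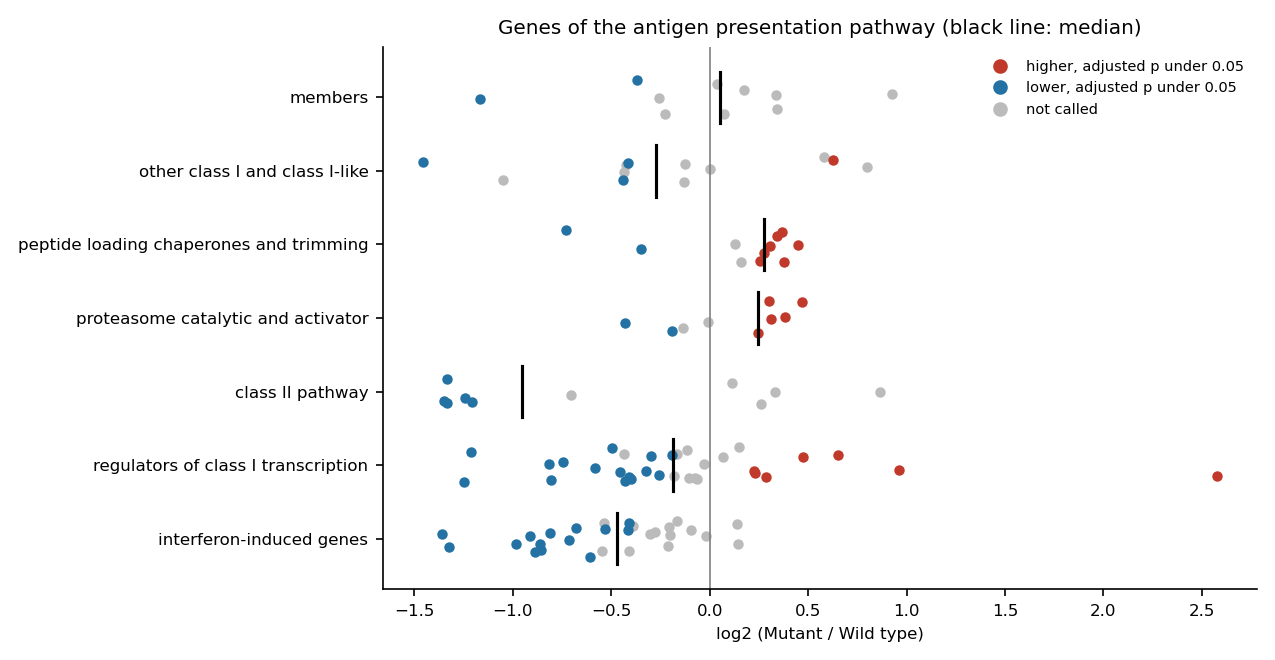
Log2 fold change of mutant over wild type (x axis) for the 10 genes (top row) and 6 lists of related genes. Points are genes, red where called higher, blue where called lower and grey where not called by edgeR, and black lines are medians. The interferon-induced and class II lists hold no red point, and most loading chaperones lie to the right of 0.

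Among class I and class I-like genes outside the 10, 12 of 16 were tested, 1 rose and 3 fell, shares near or below the 21.5% higher and 22.9% lower of all genes. The number that fell was 5 without Mutant 4, with a block for label number or for replicate number, and by limma-voom. *Fcgrt*, which encodes the heavy chain of the neonatal Fc receptor and pairs with beta-2-microglobulin, fell from 5043 ± 560.7 to 1838 ± 352.3 normalized counts (log2 fold change -1.46, SE 0.14, adjusted p = 0.0000324 by edgeR). *H2-T23*, which encodes the non-classical molecule Qa-1, fell from 1372 ± 203.6 to 1011 ± 59.57 (-0.44, adjusted p = 0.00615), and *H2-T22* from 917.2 ± 120.0 to 687.6 ± 14.88 (-0.42, adjusted p = 0.00672). *Cd1d1*, which presents lipids, rose from 318.1 ± 17.64 to 492.3 ± 83.08 (0.63, adjusted p = 0.00237). All 4 kept their call whichever library was left out.

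Of the 10 genes 7 lie within 1.35 Mb of chromosome 17, between 33915899 and 35267499. The other 82 tested genes of that stretch were called in 32.9% of cases, 11 higher and 16 lower, with a median log2 fold change of -0.034.

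Across the 8 libraries, with each group's mean taken off, the mean standardized level of the 10 genes was 1.444 in Mutant 4 and between -0.627 and 0.404 in the other 7. The genes of at least 100 normalized counts outside all lists whose pattern was most like it were *Kansl2*, *Slc26a6*, *Atp6ap1*, *Rpl13a* and *Mfsd1*, with Pearson correlations of 0.984 to 0.977 over 8 libraries. All 5 were highest among the mutants in Mutant 4, and the points share their normalization. The same correlation of a single gene of the 10 with their mean ran from 0.929 for *B2m* down to 0.079 for *Cd74*. That mean includes the gene itself, which raises these values.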

How the data were processed

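Whole-number counts per gene were deposited by the authors, who per the study's methods sequenced poly(A) libraries of 8 pups, trimmed reads with Trimmomatic and mapped them to GRCm38 with STAR. The counting program, its use of strand and its treatment of reads with several matches are not given in the sources used here. A second deposited set, scaled with DESeq2 by the authors, was not used. Counts were tested in R 4.3.3 with edgeR 4.0.16 (TMM scaling, filterByExpr with a minimum count of 10, glmQLFit and glmQLFTest, no covariate), as Mutant against Wild type, 4 libraries each. Benjamini-Hochberg adjustment ran over 16887 genes, and a gene was called at an adjusted p under 0.05. Normalized counts are counts divided by the TMM-scaled library size, times the mean library total. The 95% intervals come from the same fit. Gene lengths came with the deposited counts. A symbol was found for 48970 of 49315 identifiers, and 44823 had the same position as in GENCODE vM21. Ratios of subunits were compared by exact permutation. The procedure was tested on simulated counts. The 12 pairs of libraries within a group all differed by more than sampling noise.

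The 10 genes and all gene lists were chosen with earlier results of these data known. Named from the lists were the called genes, up to the 6 of largest change per list, and functional partners of the 10; exceptions are stated. Alternatives were DESeq2 1.42.0, limma 3.58.1 (voom), RLE or library-size scaling, no count filter or a mean of at least 100, blocks for replicate or label number, and leaving out each library. Replicate numbers were not treated as pairs: deviations of same-numbered libraries correlated at 0.201, 0.21, 0.29 and 0.024, the last under the limit of 0.1. Some genes of the lists are not reported here.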

Additional observations from a re-analysis of the deposited data

Results flagged for a closer look

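In 16 of 164 groups of 4 libraries, taken over the genes named with values and 3 subunit ratios, 1 library lay so far from the other 3 that the gap passed Dixon's 95% limit. Chance gives about 1 in 20, but several of these genes were named because of their level in Mutant 4, so the count cannot be read against that rate. Mutant 4 was the highest mutant library for *H2-Q6* (1424.6 normalized counts), *H2-Q7* (618) and *H2-T10* (38.2), named for that reason, and for *Atp6ap1* (4181.6) and *Rpl13a* (13785), named for a pattern like that of the 10 genes. It was also the highest for *Nlrc5* (336.4), the interferon-induced *Ifit1* (118.2), *Itgax* (550.2) and the constitutive proteasome subunit *Psmb5* (2005.2). Wild type 3 was the highest control for *Csf1r* (7012.7), *Ctss* (1921.7) and *H2-DMb1* (44) and the lowest for *Pdia3* (14814.5). The others were *Canx* in Mutant 3 (11628.6), *Erap1* in Mutant 1 (1467.9) and *Ms4a1* in Wild type 1 (29.4), each the lowest of its group.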

How the results depend on the processing

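The direction and call of *Tapbp* held in all 18 alternatives. The number of the 10 genes called was 2 and became 4 with a block for label number, when *Tap1* (0.31, adjusted p = 0.0379) and *Tap2* (0.17, adjusted p = 0.0496) were called higher, and 1 to 4 when a library was left out. The number called over 2-fold was 1 and became 0 to 1 when a library was left out. Among all genes 2356 were called over 2-fold, and 1194 when a mean of at least 100 normalized counts was required, a filter under which all class II genes called lower and *Nlrc5* were not tested. Signs changed for *B2m* (-0.107 without Mutant 4), *Nlrc5* (-0.202 without Mutant 4) and *Psmb8* (-0.017 with library size only, -0.058 without Mutant 4, -0.012 without Wild type 2), none of which was called, and leaving out a library moved them over -0.107 to 0.186, -0.202 to 1.242 and -0.058 to 0.11 in that order. Leaving out a library moved the log2 difference of the *Psmb8* to *Psmb5* ratio over -0.489 to -0.299, of *Psmb9* to *Psmb6* over -0.016 to 0.192 (-0.016 without Mutant 1, -0.014 without Mutant 4) and of *Psmb10* to *Psmb7* over -0.798 to -0.67. Without Wild type 2, *Psmb8* to *Psmb5* (-0.489) and *Psmb10* to *Psmb7* (-0.778) had an adjusted exact permutation p of 0.0429. In that analysis the groups of both ratios did not overlap, so both had the smallest exact p that the remaining libraries allow. The adjustment over 3 ratios raises such a p less when more than 1 ratio reaches it. The cause of the changes between alternatives was not tested. Of 61 genes called in the related lists, 42 were called whichever library was left out, 4 lost the call without 1 library and 15 without 2 or more.

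With a replicate block, *Tap1* was called higher (0.308, adjusted p = 0.041) and *Cd74* stayed lower (-1.318, adjusted p = 0.00117), and no other call among the 10 changed. The paired form of the ratio test cannot go below an exact p of 0.125. Mutants 1 to 4 correlated best with Wild types 1, 1, 3 and 3, so not every library matched its own number.

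The 4 libraries a group and the low counts of *Nlrc5* limit what can be seen, and intervals for uncalled genes leave room for changes, such as *H2-K1* from 0.603 to 1.16 times the wild-type level.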
